A study of Mus musculus with 2 samples.

Results

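The genes described here are the receptors and brain ligands of the fibroblast growth factor (FGF) family in newborn mouse hindbrain. They are 10 genes chosen by name from 43346 Ensembl genes with a row in the deposited tables: the receptors Fgfr1, Fgfr2 and Fgfr3, the receptor-like Fgfrl1, and the ligands Fgf2, Fgf8, Fgf9, Fgf15, Fgf17 and Fgf18. All 10 had a single matching row in the gene table, and their 76 annotated transcripts were read from the transcript table. Hindbrain (cerebellum, pons and medulla) was taken at postnatal day 0 from healthy mice of the strain B6NTac;B6NCrl/Lap, with males and females pooled. RNA longer than 200 nt was freed of ribosomal RNA, spike-in RNA was added, and stranded libraries were sequenced from both ends. The series is 1 group of 2 libraries, replicate 1 from a pool of 15 mice and replicate 2 from a pool whose size the labels do not give. The labels call the 2 isolates independent but give both the same donor identifier, and the difference between the libraries may be partly technical.

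FGF ligands are secreted proteins that bind, together with heparan sulphate, to receptor tyrosine kinases on neighbouring cells. Bound receptors pass the signal through the docking protein FRS2 and the MAP kinase cascade to ETS transcription factors, and the same signal induces inhibitors such as the Sprouty proteins. In the hindbrain, FGF8 and its relatives FGF17 and FGF18 are known as signals of the midbrain-hindbrain boundary, where they pattern the cerebellum, and FGFR1 and FGFR3 are known from neural precursors and astroglia.

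The tissue label was checked against marker genes. Levels are in TPM, a share of all transcripts that corrects for gene length and library size. All 9 of 9 hindbrain patterning genes (Hox genes of the rhombomeres, Gbx2, En1 and En2) were at 1 TPM or more in both libraries, with summed levels of 81.4 and 56.0 TPM in replicates 1 and 2. Of 8 forebrain genes 2 reached that level, and the list summed to 17.2 and 9.14 TPM. Those 2, Lhx2 (818 and 1067 counts) and Neurod6 (1020 and 1227 counts), made up most of the sum. By TPM both lay above En1, Hoxa3 and Hoxb4 in each library, and below En2, Hoxa5, Hoxb2 and Hoxb3. Dlx5, Dlx6 and Rax had 0 counts in both libraries. The libraries held 54313140 and 77142270 expected counts. Protein-coding genes took 28.1% of all TPM in replicate 1 and 19.3% in replicate 2, which lowers the TPM of a coding gene in replicate 2 at an equal share of coding RNA. With 2 libraries of 1 group there is no comparison of groups, and no p-values are given, because an exact sign flip of 2 values has 0.5 as its smallest p. In bulk tissue, fewer cells of a type and less RNA per cell cannot be told apart.

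The receptors carry their best known alternative in the third immunoglobulin domain, whose second part is encoded by 1 of a pair of mutually exclusive exons. The upstream exon, IIIb, is known from epithelia, and the downstream exon, IIIc, from mesenchyme and neural tissue, and the choice decides which ligands bind. Shown here, from build mm10, are the IIIb exon of Fgfr2, because the transcript results below turn on it, and both exons of Fgfr3, as an example of a pair. Capitals mark bases that align to an identical base in Fgfr3 IIIb (for Fgfr2 IIIb and for Fgfr3 IIIc) or in Fgfr3 IIIc (for Fgfr3 IIIb).
Fgfr2 IIIb, chr7:130199758-130199905, minus strand: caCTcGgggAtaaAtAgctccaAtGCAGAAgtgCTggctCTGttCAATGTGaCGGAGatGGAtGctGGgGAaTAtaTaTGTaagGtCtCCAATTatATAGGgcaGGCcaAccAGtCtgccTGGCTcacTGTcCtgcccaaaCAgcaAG
Fgfr3 IIIb, chr5:33731281-33731431, plus strand: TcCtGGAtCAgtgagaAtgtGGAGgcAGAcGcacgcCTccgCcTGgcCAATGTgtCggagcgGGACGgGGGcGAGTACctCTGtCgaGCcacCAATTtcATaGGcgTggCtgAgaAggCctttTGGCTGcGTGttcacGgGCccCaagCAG
Fgfr3 IIIc, chr5:33732117-33732261, plus strand: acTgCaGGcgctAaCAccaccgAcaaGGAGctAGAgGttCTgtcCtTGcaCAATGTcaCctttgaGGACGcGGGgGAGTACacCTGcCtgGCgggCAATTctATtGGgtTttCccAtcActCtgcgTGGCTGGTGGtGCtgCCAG
The exons of the Fgfr3 pair lie 685 nt apart and share 51.7% of their bases, counted over the longer exon. The IIIb exon of Fgfr2 shares 51.0% with the IIIb exon of Fgfr3 and 56.1% with its IIIc exon.

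The members ran from Fgfr3, the highest, to Fgf17, which had 0 counts in replicate 1 and 31 in replicate 2. Every member receptor was above every member ligand in both libraries. Of the 10 members, 7 were at 1 TPM or more in both libraries: the 4 receptor genes, and 3 of the 6 ligands (Fgf9, Fgf15 and Fgf18). The background is 11725 of 21461 protein-coding genes of the nuclear genome (54.6%). Summed over Fgfr1, Fgfr2 and Fgfr3 the level was 74.3 TPM in replicate 1 and 55.7 TPM in replicate 2, and summed over the 6 ligands it was 10.6 and 6.50 TPM. The 3 kinase receptors together were thus 7.04 and 8.56 times these 6 ligands, which were chosen by name. The 12 other secreted ligands summed to 14.1 and 9.72 TPM, more than the 6, so the ratio does not describe all secreted ligands. TPM was lower in replicate 2 for 9 of the 10 members, whereas on TPM rescaled to the coding genes of each library 8 of the 10 were higher in replicate 2.

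**Figure D1:**
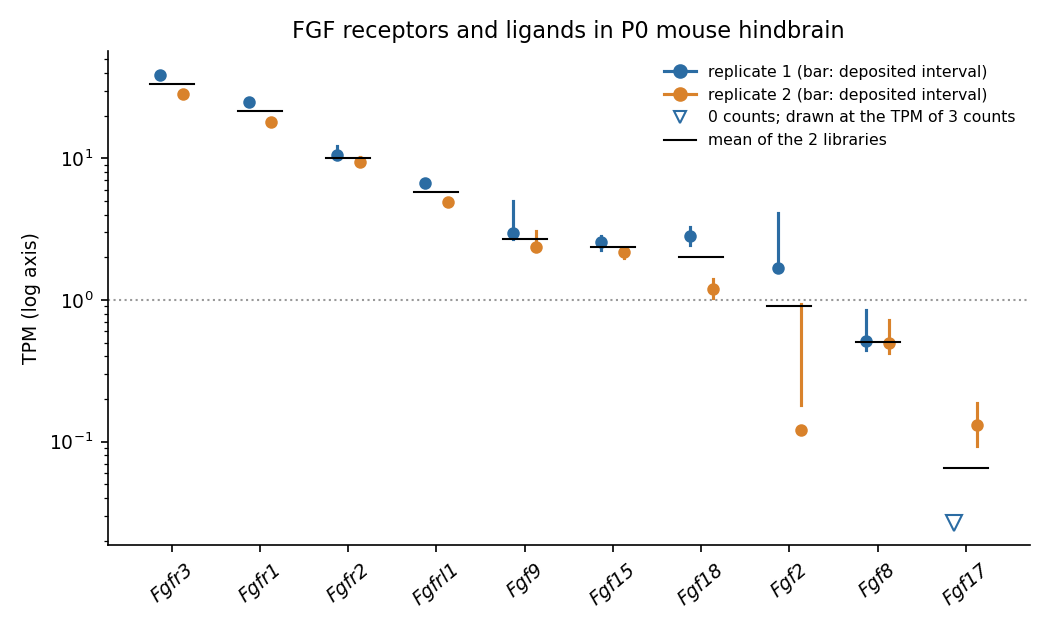
Level of each member in TPM on a log axis, replicate 1 in blue and replicate 2 in orange, with the deposited interval as a bar and the mean of the 2 libraries as a black line. The 4 receptor genes lie between 4.89 and 38.8 TPM in every library and the ligands at 2.97 TPM or below. Fgf17 had 0 counts in replicate 1 and is drawn there at the TPM of 3 counts.

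Fgfr3 (ENSMUSG00000054252.13, chr5:33721674-33737068, plus strand) encodes the receptor best known from astroglial precursors and cartilage. It was the highest member, with 38.8 TPM in replicate 1 and 28.3 TPM in replicate 2 (33.6 ± 7.40 TPM, SD, n = 2), from 10582 and 14971 counts. The libraries lie apart on the TPM scale but not on scaled counts, where the log2 ratio of replicate 2 over replicate 1 was -0.01 with a 95% counting interval from -0.04 to 0.03. Here and below, counts were scaled by the trimmed mean of M-values (TMM), and such intervals cover counting error only, since the reads carry no molecular identifiers. Fgfr3 took 52.2% and 50.9% of the TPM of the 3 kinase receptors, and its mean stood at the 94.2 percentile of coding genes.

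Fgfr1 (ENSMUSG00000031565.13, chr8:25513654-25575718, plus strand) encodes the most widely used FGF receptor of the nervous system. It stood at 25.1 and 17.9 TPM (21.5 ± 5.07 TPM, SD, n = 2), from 7895 and 10420 counts, and at the 89.7 percentile of coding genes. Its scaled counts were slightly lower in replicate 2, with a log2 ratio of -0.11 (interval -0.15 to -0.07), which came to -0.01 when spike-in totals set the scale. In both libraries it lay below Fgfr3, by 0.65 ± 0.02 on the log2 TPM scale within a library (mean ± SD, n = 2), so these neighbours differed beyond their spread, taken as a mean over 2 SD with the same sign in both libraries.

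Fgfr2 (ENSMUSG00000030849.13, chr7:130162451-133123350, minus strand), which has known roles in oligodendrocyte lineage cells and in epithelia, was lower again. Its level was 10.5 TPM in replicate 1 and 9.46 TPM in replicate 2 (9.96 ± 0.707 TPM, SD, n = 2), from 2409 and 4386 counts. The libraries were close in TPM, while scaled counts were higher in replicate 2 by 0.36 on the log2 scale (interval 0.28 to 0.43). Fgfr1 exceeded Fgfr2 by a log2 TPM difference of 1.09 ± 0.24 (n = 2), beyond the spread.

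Fgfrl1 (ENSMUSG00000008090.10, chr5:108692382-108706924, plus strand) encodes a receptor-like protein that binds FGFs and heparin but has no kinase domain. It stood at 6.73 and 4.89 TPM (5.81 ± 1.30 TPM, SD, n = 2), from 1291 and 1905 counts, with a log2 count ratio of 0.05 (interval -0.05 to 0.16). Fgfr2 exceeded it by 0.79 ± 0.22 on the log2 TPM scale, and it exceeded Fgf9, the highest member ligand, by 1.11 ± 0.10 (n = 2 for both). Both differences were beyond the spread. A single transcript, Fgfrl1-201, held 99.6% and 99.2% of the gene's TPM.

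Among coding transcripts that hold either exon, Fgfr1 and Fgfr3 were IIIc almost throughout, and Fgfr2 was the receptor with a measurable share of IIIb. Among these, IIIc transcripts took 99.96% of the TPM of Fgfr1 in replicate 1, with 1.89 expected counts on IIIb, and all of it in replicate 2. A further Fgfr1 transcript, annotated to nonsense-mediated decay and so outside these shares, holds both exons. It had 73.6 and 125 expected counts in replicates 1 and 2, or 2.87% and 3.34% of the gene's TPM. For Fgfr3 the IIIc share was the whole in replicate 1 and 99.0% in replicate 2, where the IIIb share rested on 12 counts of a partial transcript 601 nt long. These 2 genes were alike in both libraries.

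For Fgfr2 the IIIc share was 66.3% in replicate 1 and 91.4% in replicate 2 (78.9 ± 17.7%, SD, n = 2). The IIIb transcripts held 549 expected counts in replicate 1 and 247 in replicate 2, of which Fgfr2-211 held 536 and 201, and the IIIc transcripts held 1399 and 3607. IIIc led in both libraries, and the size of the IIIb share differed between them by more than the other receptor exon choices given here. Fgfr2-211 is 3053 nt long in the deposited table and 4311 nt in GENCODE release M21, from which exons were read, so its exon assignment rests on the later model.

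Values that bear on other tissues are given beside the Fgfr2 IIIb share. FGF7 and FGF10 are 2 of the known ligands of the IIIb form. Their genes stood at 0.03 and 0.08 TPM (Fgf7) and at 0.59 and 0.20 TPM (Fgf10) in replicates 1 and 2. Of the other secreted ligands, Fgf3 stood at 8.36 and 6.57 TPM and Fgf22 at 2.65 and 0.34 TPM. Whether these ligands bind IIIb was not examined here. Genes of epithelia, looked up after the shares were seen, were mixed. Esrp1, a splicing factor known to favour IIIb, had 0 counts in each (3 counts are 0.0145 and 0.00712 TPM), and its relative Esrp2 had 33 and 9 counts (0.21 and 0.02 TPM). Cdh1 stood at 1.58 and 1.29 TPM, Krt8 at 1.24 and 0.54 TPM, Krt18 at 0.99 TPM in each and Epcam at 0.26 and 0.36 TPM, whereas Krt5 had 0 counts in both and Krt14 had 16 and 0. Of the marker lists, cartilage, bone and muscle genes summed to 44.9 TPM in replicate 1 and 8.21 TPM in replicate 2, with 2 of 6 detected in both and Bglap at 0 counts in each. Most of that sum was the muscle gene Acta1 (36.0 and 3.98 TPM), and the other 5 genes summed to 8.84 and 4.23 TPM. Choroid plexus genes, 5 of 6 detected, mostly went the other way, with a median log2 count ratio of 0.53 over 6 genes. They summed to 332 and 354 TPM, most of it Ttr (315 and 336 TPM). Kl was lower in replicate 2, with a log2 count ratio of -0.34. The part of these tissues in the IIIb share was not tested.

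The first immunoglobulin domain is known to restrain ligand binding. Among coding transcripts with IIIb or IIIc it was kept in Fgfr1 and left out of most Fgfr2 TPM. Of the TPM on coding Fgfr1 transcripts that hold IIIb or IIIc, those with its exon held 99.96% in replicate 1 and all in replicate 2, where 3 of 6 annotated transcripts lack the exon. No such Fgfr3 transcript lacks it in the annotation, so Fgfr3 gives no measure of this choice. For Fgfr2 transcripts with the exon held 29.3% in replicate 1 and 37.1% in replicate 2 (33.2 ± 5.53%, SD, n = 2), all of it on Fgfr2-215. In both libraries the shorter form, without the exon, was thus the larger part of Fgfr2, with 70.7% and 62.9%.

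A smaller choice lies at the end of the exon that follows IIIb or IIIc and encodes the membrane-spanning segment. In Fgfr2 an alternative donor site removes the last 6 bases, which encode the valine and threonine known to bear on docking of FRS2. The last 30 bases of the longer exon are shown because these 6 bases, in capitals, are the whole difference, and the single form annotated among coding Fgfr1 transcripts ends in the same 6.
Fgfr1, exon chr8:25566711-25566913, plus strand: aagagcatccctctgcgcagacagGTAACA
Fgfr2, exon chr7:130196172-130196374, minus strand: aagcgcatccccctgcggagacagGTAACA
For Fgfr2 the longer exon held 62.9% in replicate 1 and 45.8% in replicate 2 (54.3 ± 12.2%, SD, n = 2), and the shorter one was found on Fgfr2-207 alone. The 2 forms of Fgfr2 were therefore both present in each library, and which of them led differed between the libraries. The longer form includes the IIIb transcript Fgfr2-211 (2.39 and 0.44 TPM), so this choice is not separate from the IIIb share. Among IIIc transcripts the shorter form, Fgfr2-207 (2.72 and 3.64 TPM), led the longer, Fgfr2-215 (2.15 and 2.49 TPM), in both libraries. For Fgfr1 and Fgfr3 a single form of this exon was annotated among coding transcripts that hold IIIb or IIIc, so no choice could be measured there.

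**Figure D2:**
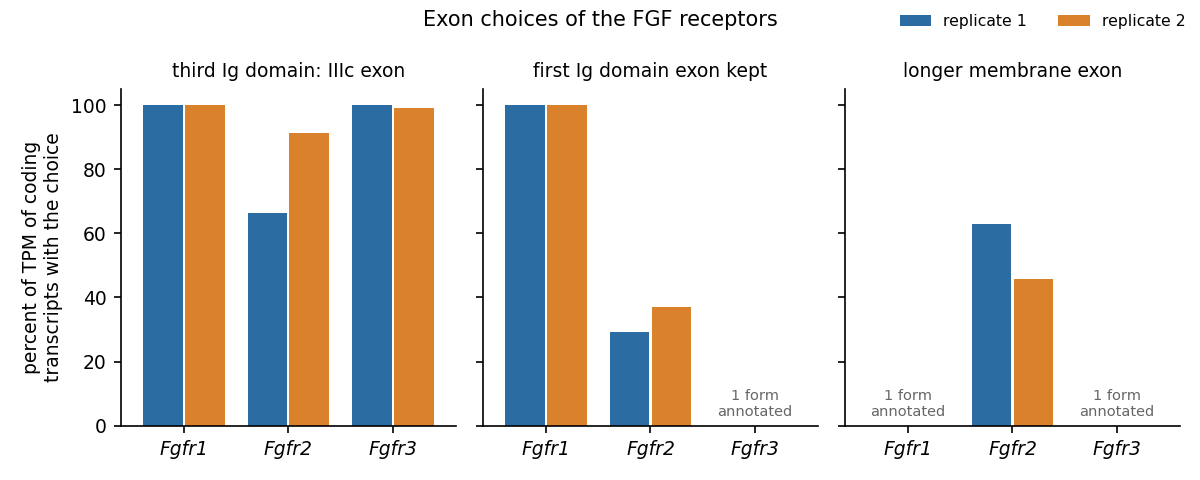
Percent of the TPM of the coding transcripts that carry each exon choice, for 3 receptors and 2 libraries (replicate 1 blue, replicate 2 orange). Genes with 1 annotated form have no bars. Fgfr1 and Fgfr3 stand at 99.0% or more for IIIc, and Fgfr2 stands at 66.3% and 91.4% for IIIc, 29.3% and 37.1% for the first domain exon and 62.9% and 45.8% for the longer membrane exon.

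Other small choices varied in Fgfr1 and Fgfr3. In Fgfr1 a short exon before the second domain was 84 nt long in transcripts with 67.6% and 72.1% of the TPM, and 90 nt long in the rest. The 84 nt form led in both libraries. In Fgfr3, transcripts that skip a 54 nt exon after the first domain exon, Fgfr3-202 alone, held 11.7% and 20.2%, and those with the longer, 149 nt form of the exon after the membrane exon, Fgfr3-209 alone, held 24.7% and 33.7%.

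By whole transcripts, Fgfr1-202 led Fgfr1 with 51.8% and 50.6% of the gene's TPM, followed by Fgfr1-201 with 28.9% and 21.9%. Fgfr3-201 led Fgfr3 with 53.5% and 34.3%, followed by Fgfr3-209 with 20.7% and 28.1%. The order within each of these genes was the same in both libraries. In Fgfr2, Fgfr2-207 (IIIc, without the first domain exon) held 26.0% and 38.5%, Fgfr2-215 (IIIc, with it) 20.5% and 26.3%, and Fgfr2-211 (IIIb) 22.9% and 4.66%.

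A further 23.3% and 11.3% of Fgfr2 TPM lay on Fgfr2-217, a transcript that is annotated to Fgfr2 but begins in the exons of Ctbp2, a gene for a transcriptional co-repressor upstream on the same strand. Of its 7 exons, 2 lie in Ctbp2 exons (314 bases), and 5 are shared with other Fgfr2 transcripts. It had 422 and 377 expected counts. Without it Fgfr2 stood at 8.03 and 8.38 TPM (8.21 ± 0.247 TPM, SD, n = 2), still between Fgfr1 and Fgfrl1. Ctbp2 itself stood at 29.4 and 17.0 TPM, so how reads were divided between the 2 genes bears on this value.

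Transcripts with a retained intron held 3.90% and 13.4% of the TPM of Fgfr1, 6.61% and 17.8% of Fgfr2, and 14.8% and 15.8% of Fgfr3. In all 3 receptors the share was higher in replicate 2. Over 4866 detected coding genes with such a transcript the medians were 5.84% and 7.95%, and 58.5% of those genes were higher in replicate 2. Coding transcripts held 86.2 ± 4.16% of Fgfr1, 87.8 ± 7.88% of Fgfr2 and 84.7 ± 0.707% of Fgfr3 (SD, n = 2), beside a median of 86.1% over the same genes. Transcript shares moved between the libraries by 14.9 points in Fgfr1, 30.8 in Fgfr2 and 24.6 in Fgfr3, counted as the percentage of a gene's TPM placed on other transcripts, beside a median of 14.0 points over 8677 genes with several transcripts.

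**Figure D3:**
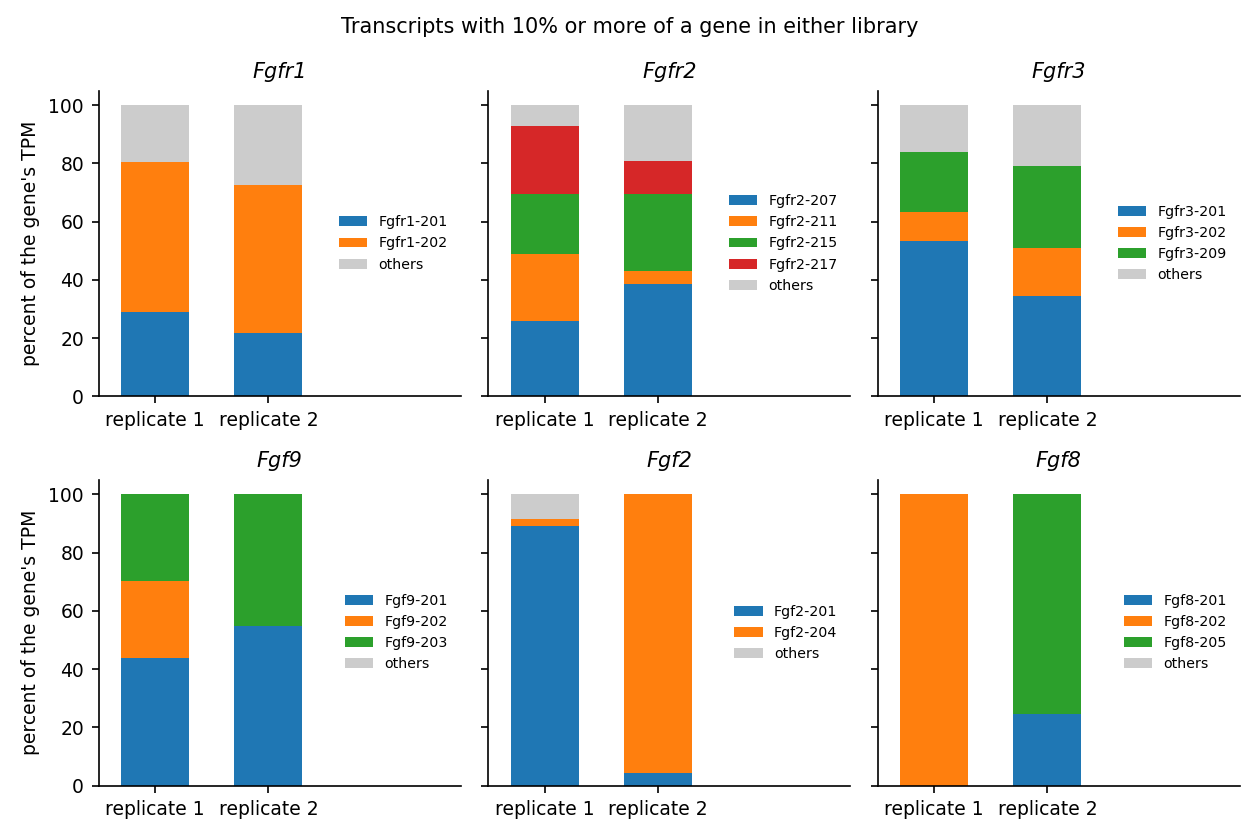
Percent of a gene's TPM on each transcript with 10% or more in either library, stacked per library, with all other transcripts in grey. Fgfr1-202 stays near 51% in both libraries, Fgfr2-211 goes from 22.9% to 4.66%, and Fgf2 and Fgf8 are on different transcripts in the 2 libraries.

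Among the ligands, Fgf9, Fgf15 and Fgf18 lay near 2 TPM, and Fgf2, Fgf8 and Fgf17 lay below 1 TPM on average. Fgf9 (ENSMUSG00000021974.10, chr14:58070547-58112720, plus strand) encodes a neuronal FGF known to act on Bergmann glia of the cerebellum. It stood at 2.97 and 2.38 TPM (2.68 ± 0.417 TPM, SD, n = 2), from 403 and 796 counts. Its scaled counts were higher in replicate 2 by 0.47 on the log2 scale (interval 0.30 to 0.65), which is short of 1.5-fold. Fgf9-201 and Fgf9-203 carried it in both libraries, with 44.0% and 54.9% on the first and 29.8% and 45.1% on the second, while Fgf9-202 had 26.2% in replicate 1 and 0% in replicate 2.

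Fgf15 (ENSMUSG00000031073.5, chr7:144896531-144900953, plus strand), the mouse counterpart of human FGF19, is known from the embryonic neural tube and as a gut hormone. It stood at 2.56 and 2.17 TPM (2.37 ± 0.276 TPM, SD, n = 2), from 313 and 542 counts, all on its single transcript. Fgf9 lay above it by 0.17 ± 0.06 on the log2 TPM scale (n = 2), beyond the spread by this measure, although the deposited intervals of the 2 genes overlap in both libraries. The antisense gene Gm26793 shares 761 exonic bases with Fgf15 and had 65 and 123 counts. Whether the counting used strand is not given in the sources used here.

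Fgf18 (ENSMUSG00000057967.8, chr11:33117430-33147400, minus strand) belongs to the FGF8 subfamily and is also known as a signal of cartilage and bone. It stood at 2.83 TPM in replicate 1 and 1.20 TPM in replicate 2 (2.02 ± 1.15 TPM, SD, n = 2), from 179 and 157 counts, all on Fgf18-201. Replicate 1 was the higher library by TPM and by scaled counts, with a log2 count ratio of -0.69 (interval -1.02 to -0.38), a 1.61-fold difference. The interval includes differences short of 1.5-fold. It was above Fgf15 in replicate 1 and below it in replicate 2, so these neighbours did not differ beyond their spread. The cartilage, bone and muscle list was mixed, with log2 count ratios of -0.62 for Col2a1, -0.29 for Acan and -2.65 for Acta1, but 0 and 21 counts for the bone gene Ibsp and 1 and 5 for Myog. Its part in the Fgf18 difference was not tested.

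Fgf2 (ENSMUSG00000037225.9, chr3:37348346-37410108, plus strand) encodes an FGF that lacks a signal peptide. It had 59 counts and 1.68 TPM in replicate 1 but 19 counts and 0.12 TPM in replicate 2 (0.90 ± 1.10 TPM, SD, n = 2). Replicate 1 was far the higher, with a log2 count ratio of -2.02 (interval -2.97 to -1.38). The gap is wider in TPM, in part through transcript length. The counts were put on Fgf2-201 in replicate 1 (89.1% of the gene) and on Fgf2-204 in replicate 2 (95.5%). TPM divides by an effective length of 429 nt in the first and 923 nt in the second. The lower share of TPM on coding genes in replicate 2, given above, also widens the gap. In replicate 2 the TPM lies below the deposited interval, 0.182 to 0.942, and the deposited posterior means were 2.68 and 0.50 TPM. Nudt6, which lies antisense to Fgf2 and shares 640 exonic bases with it, went the other way, with 19 counts in replicate 1 and 57 in replicate 2. The Fgf2 values are therefore uncertain.

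Fgf8 (ENSMUSG00000025219.9, chr19:45736798-45742915, minus strand), the organizer signal of the midbrain-hindbrain boundary in the embryo, was low and nearly equal in the 2 libraries. It had 0.51 and 0.50 TPM (0.505 ± 0.0071 TPM, SD, n = 2), from 36 and 51 counts, with a log2 count ratio of -0.01 and an interval from -0.65 to 0.65 that includes 1.5-fold differences in either direction. The counts fell on different transcripts: Fgf8-202 held all 36 in replicate 1, and Fgf8-205 and Fgf8-201 held 34.2 and 16.8 in replicate 2. The exon whose 33 nt longer form separates the FGF8b from the FGF8a protein had its longer form on 0 counts in replicate 1 and 16.8 in replicate 2.

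Fgf17 (ENSMUSG00000022101.5, chr14:70636203-70642268, minus strand), the near relative of Fgf8, was the lowest member. It had 0 counts in replicate 1 (3 counts are 0.0267 TPM) and 31 counts or 0.13 TPM in replicate 2. With 3 counts set for the 0 in replicate 1, scaled counts were 7.26-fold higher in replicate 2, a log2 ratio of 2.86. The exact counting interval, which allows for error in both libraries, starts at a log2 ratio of 2.48. Below Fgf15 no pair of neighbours in the order of levels (Fgf15, Fgf18, Fgf2, Fgf8, Fgf17) differed beyond its spread.

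Between the libraries, 3 of the 10 members passed 1.5-fold on scaled counts: Fgf2 and Fgf18 were lower in replicate 2, and Fgf17 was higher. The background is 4331 of 17632 genes whose mean count reached 10 (24.6%), with 2589 higher (14.7%) and 1742 lower (9.88%). All 3 are ligands with a mean count of 168 or less, and none of the 4 receptor genes passed 1.5-fold. With 1 library on each side these ratios have no replicate check.

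**Figure D4:**
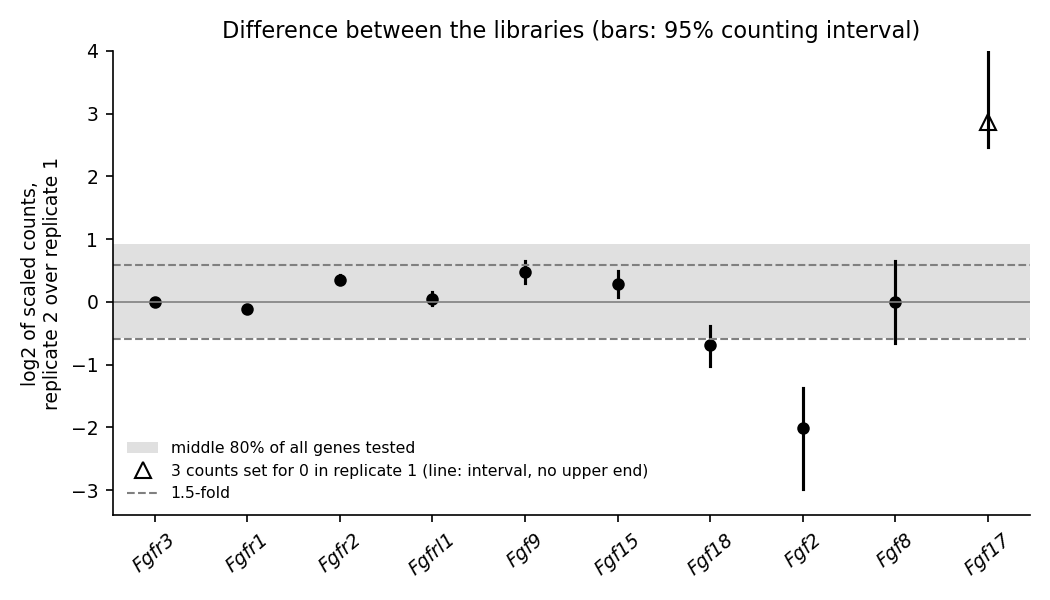
Log2 of TMM-scaled counts, replicate 2 over replicate 1, for each member with its 95% counting interval. The grey band holds the middle 80% of all genes tested, from -0.58 to 0.92, and dashed lines mark 1.5-fold. Fgf2 at -2.02 and Fgf18 at -0.69 lie below the band, and Fgf17 lies above it, drawn at 2.86 (3 counts set for 0) with an interval that starts at 2.48 and has no upper end.

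The other genes of the pathway were read from lists by role, of which 81 genes had a row and 66 (81.5%) were at 1 TPM or more in both libraries, beside 54.6% of all coding genes. Fgfr4, the remaining kinase receptor, known from muscle precursors and liver, stood at 0.71 and 0.16 TPM (174 and 82 counts). In both libraries it was below every other receptor, and below the ligands Fgf9, Fgf15 and Fgf18. Of 12 other secreted ligands 2 were detected. Fgf3, known from the embryonic hindbrain and inner ear, was the highest, with 8.36 and 6.57 TPM (7.47 ± 1.27 TPM, SD, n = 2). In both libraries it was above all 6 member ligands and above the receptor gene Fgfrl1 (6.73 and 4.89 TPM). Fgf1 was the other detected one, with 1.11 and 1.62 TPM. Fgf22 stood at 2.65 and 0.34 TPM from 38 and 11 counts. Fgf4, Fgf6, Fgf20 and Fgf21 had 0 counts in both libraries.

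All 4 intracellular FGF homologous factors, which act on sodium channels and are not secreted, were detected. Fgf13 led with 43.0 and 22.0 TPM and Fgf11 was lowest with 5.36 and 3.66 TPM. Each of the 4 was above the 6 member ligands in both libraries. Of 16 co-receptors and binding partners 13 were detected. The proteoglycan Sdc3 (147 ± 48.6 TPM), the adhesion molecule Ncam1 (107 ± 40.6 TPM) and the glypican Gpc1 (47.9 ± 9.67 TPM, SD, n = 2 for all) were highest. Klb, the co-receptor for endocrine FGFs such as FGF15, had 6 and 2 counts (0.02 and 0.00 TPM). Gpc4 stood at 0.87 and 0.61 TPM.

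All 13 of 13 heparan sulphate enzymes were detected, led by the sulphatase Sulf2 (27.1 ± 9.15 TPM), and Ndst2 was lowest at 3.58 ± 0.643 TPM. All 17 of 17 adaptors and kinases were detected, with the kinase Map2k2 highest at 70.5 ± 16.8 TPM. The docking protein Frs2 was lowest at 3.14 ± 1.32 TPM (SD, n = 2 for all). Its neuronal relative Frs3 stood at 42.7 and 27.4 TPM, above Frs2 in both libraries, and is named after its value was seen.

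Of the feedback inhibitors all 10 of 10 measured were detected. The phosphatases Dusp4 (18.9 ± 8.85 TPM) and Dusp6 (14.1 ± 4.73 TPM) and the Sprouty-related Spred1 (12.8 ± 4.51 TPM) were highest, and Spry4 (3.31 ± 0.940 TPM) and Il17rd (2.96 ± 1.63 TPM) lowest. Of 8 target transcription factors 7 were detected, led by the ETS factors Etv5 (14.9 ± 5.42 TPM) and Etv4 (12.1 ± 1.75 TPM, SD, n = 2 for all), and Sp8 was lowest with 1.08 and 0.63 TPM. Of 75 pathway genes whose mean count reached 10, 2 were higher and 6 lower in replicate 2 by 1.5-fold (10.7%), beside the 24.6% of all genes given above. The pathway genes and all genes were not matched by count or gene type, so the 2 shares are not like for like. Fgf1 and Fgf7 were the 2 higher, and Fgfr4, Fgf10, Fgf22, Fgfbp3, Il17rd and Sp5 the 6 lower, named here after their values were seen.

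**Figure D5:**
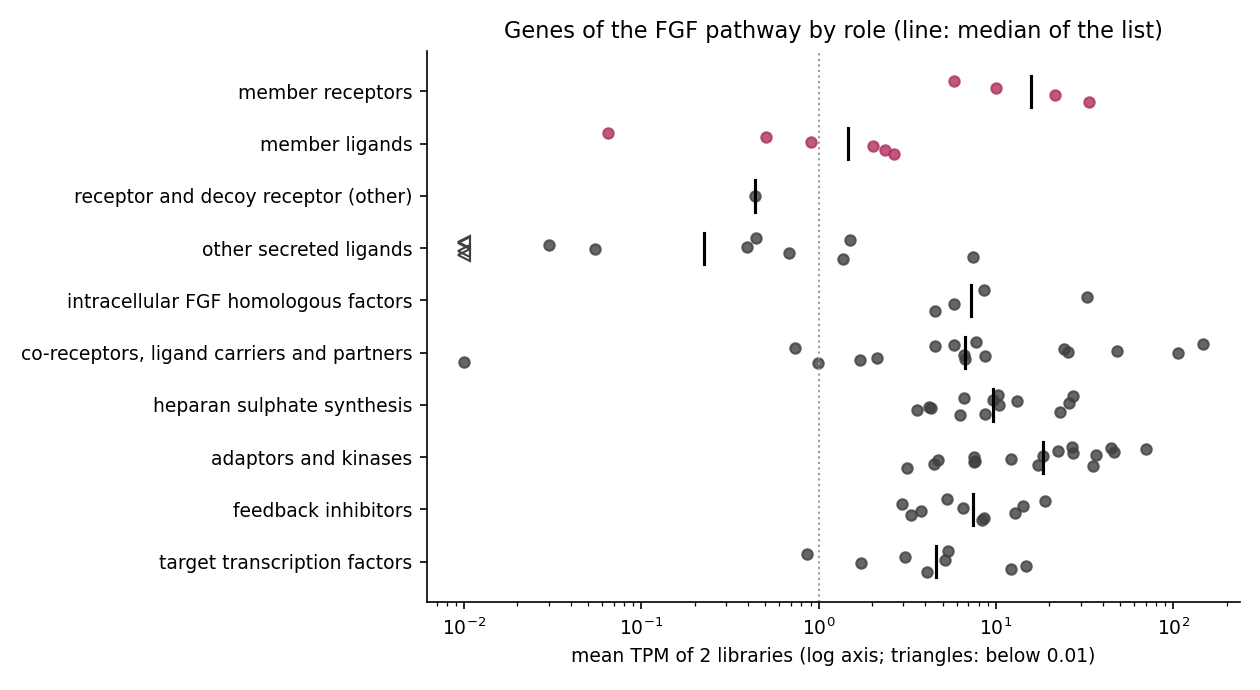
Mean TPM of the 2 libraries for each gene of the pathway, by role, on a log axis, with the members in red, the median of a list as a black line and 1 TPM as a dotted line. The member receptors lie between 5.81 and 33.6 TPM and the member ligands between 0.065 and 2.68 TPM. Among the other secreted ligands Fgf3 stands alone at 7.47 TPM, and triangles mark 4 genes with 0 counts.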

How the data were processed

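The authors deposited gene and transcript tables of each library, made from transcriptome alignments with build mm10 and GENCODE release M4, per the deposited notes. The aligner is not given in the sources used here, nor is the quantifier. The deposited values, per the file headers, are expected counts (estimated, not always whole), TPM, FPKM (a multiple of TPM, not used), percent of a gene's TPM per transcript, posterior means, and interval bounds (a signal whose level is not stated). GENCODE M21, on the same build, supplied symbols, transcript types, exons and sequences, and matched 42462 of 43346 genes (98.0%). Of the 21 named transcripts 8 have other lengths there.

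Ratios used rounded expected counts, TMM scaling (edgeR 4.0.16, R 4.3.3; DESeq2 1.42.0 as an alternative), a prior count of 2 and exact binomial intervals at 95%, and the script was tested on simulated data. Order within a library used log2 of TPM plus 0.01. Exons were aligned with Biopython 1.88. Named transcripts had at least 10% of a gene in either library, and of each other list the 3 highest and 2 lowest genes were eligible. Genes, lists and rules were chosen with earlier results of these data known. Spry3 and Anos1 were not matched and are not analysed here. Some items are withheld and are not reported here.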

Additional observations from a re-analysis of the deposited data

How the results depend on the processing

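The number of members at 1 TPM or more in both libraries (7) became 8 at 0.5 TPM, 6 at 2 TPM and 8 on TPM over coding genes, and 7 or 8 with 1 library left out. The share of genes past 1.5-fold (24.6%) ranged from 24.6% to 31.9% over 5 alternatives. The 3 members past it were Fgf2, Fgf17 and Fgf18 under every scaling and prior count tried. Fgf18 passed only narrowly with spike-in scaling, at a log2 ratio of -0.59. Spike-in scaling raised the median ratio of all genes to 0.11 on the log2 scale and gave Fgfr3 a log2 ratio of 0.09. The IIIc share of Fgfr1 was 99.6% by posterior mean TPM, and that of Fgfr2 was 77.8% so computed, 66.3% without replicate 2 and 91.4% without replicate 1. By log2 TPM, Fgf15 over Fgf18 was -0.14 without replicate 2 and 0.85 without replicate 1. Fgf2 over Fgf8 (-0.14) turned to 0.92 by posterior means, 0.049 with a pseudocount of 0.1 and 1.70 without replicate 2, and was -1.97 without replicate 1. Fgf8 over Fgf17 passed its spread with a pseudocount of 0.1 (2.00 ± 0.867). Posterior means moved 2 of 10 levels, 2 leading-transcript and 2 coding shares by more than their SD, and rescaling to coding genes moved all 10 levels. The causes of these changes were not tested. The expected-count version of the IIIc shares and Fgfr2 without Fgfr2-217 were added after the data were seen. Counts of 59 or fewer limit Fgf2, Fgf8 and Fgf17. No paired analysis was possible because the series holds 1 group.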
